A study of Mus musculus with 28 samples.

Results

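The 55 genes described here are the collagen chains (44) and laminin chains (11) of the mouse, taken from the 24391 gene symbols of the deposited count table by their names alone: Col, a number, a and a number, or Lam, the letter a, b or c and a number. They were measured in motor cortex of 14 mice of the genotype Cx3CR1-Cre/TRAPfl, in which Cre is driven by Cx3cr1, so that a tagged ribosome is made mainly in microglia and also in the macrophages at the borders of the brain. Polyadenylated RNA of each mouse was sequenced as 1 library from translating ribosome affinity purification (TRAP, the RNA held by the tagged ribosomes and whatever comes down with it) and 1 library from the total lysate. The study compared 7 mice taken from the home cage with 7 mice that had run on a rotarod for 1 h, which gave 4 groups of 7 libraries, and each condition held 4 mice of cohort 1 and 3 of cohort 2, with both sexes in each condition. All groups, the home cage controls included, carried both alleles. The sources used here give no ages for the mice. The labels give microglia as the cell type of all 28 libraries, but those of the lysate hold RNA of the whole tissue.

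Laminins are trimers of 1 α, 1 β and 1 γ chain and assemble, with sheets of collagen IV, into basement membranes. In the brain these sheets lie around vessels, where endothelial cells, mural cells and the endfeet of astrocytes all add chains, and under the meninges at the pial surface. Fibrillar collagens such as types I and III are made mainly by fibroblasts of the meninges and of large vessels, while other collagens coat fibrils, form beaded filaments or sit in the plasma membrane of neurons.

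The libraries held 70090518 to 241381845 assigned reads. Cohort 1 libraries had 104405588 to 138964185 in TRAP and 70090518 to 121179170 in lysate, and cohort 2 libraries 126875525 to 241381845 and 155554001 to 179477632. Values are CPM, the reads of a gene relative to the library's total on a common scale, scaled by the trimmed mean of M values (TMM). The cohorts differed in base composition: across genes, the Spearman correlation of a library's level, relative to the other libraries of its fraction, with exon GC content ran from −0.79 to −0.52 in cohort 1 and from 0.48 to 0.82 in cohort 2. Exon GC content, here and below, is that of a gene's longest annotated transcript. The levels of 4 Y-linked genes went with the labelled sex in 24 of 28 libraries, and the 4 others were the TRAP and lysate libraries of 2 run mice of cohort 2, Male1 and Female2. Member calls that changed without those 2 mice are given below. The TRAP label held up against its markers: all 10 microglial markers were higher in TRAP by the test used below, with a median log2 fold of 6.42, and their summed level was 15220 to 29478 CPM in TRAP and 327 to 482 CPM in lysate. The 8 markers of border-associated macrophages were higher as well, with a median log2 fold of 6.11.

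The genes of these chains are long and rich in GC. All 55 matched the GENCODE M21 annotation of GRCm38. The median GC content of their longest transcripts was 54.5%, against 48.6% over all matched genes, with 49 of 55 above the latter. Their longest transcripts had a median length of 6046 bases against 2703.5. RefSeq start sites on GRCm38.p6 were found for 40 of the 55, with 44 windows of the 250 bases before a start. The median GC content of these windows was 59.0%, against 52.4% for 32851 windows over all genes. A GC box (GGGCGG on either strand) stood in 24 of the 44 member windows (54.5%) and in 32.7% of all windows. The letters GAGGAA, the core of sites bound by the macrophage factor PU.1, stood in 15 of 44 (34.1%) against 23.3%, CCAAT in 14 (31.8%) against 33.8% and TATAAA in 5 (11.4%) against 12.4%, each on either strand and counted whether or not matches overlapped. These are matches of letters, not sites.

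The first sequence below is shown for the layout of the chief collagen IV pair and the others for the members whose fractions did not overlap. Col4a1 and Col4a2, the 2 chains of the common collagen IV trimer, are transcribed away from each other, Col4a1 on the minus strand (chr8:11198423-11312826) and Col4a2 on the plus strand (chr8:11312805-11449287), and their first exons share 22 bases (chr8:11312805-11312826, plus strand). The others are the 250 bases before the start of the 3 collagens with the highest TRAP over lysate fold and of Lama2, the only member whose TRAP libraries all lay below all lysate libraries: Col27a1 (chr4:63215162-63215411, plus strand), Col15a1 (chr4:47207762-47208011, plus), Col6a3 (chr1:90843972-90844221, minus) and Lama2 (chr10:27616943-27617192, minus). The windows of Col27a1 and Lama2 lie inside the gene's span in GENCODE, which starts further upstream. Sequences are from RefSeq on GRCm38.p6, read 5′ to 3′ on the gene's strand. Capitals mark GGGCGG or GAGGAA; a motif on the opposite strand would stand in capitals as its reverse complement.
Col4a1 and Col4a2: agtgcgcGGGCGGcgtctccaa
Col27a1: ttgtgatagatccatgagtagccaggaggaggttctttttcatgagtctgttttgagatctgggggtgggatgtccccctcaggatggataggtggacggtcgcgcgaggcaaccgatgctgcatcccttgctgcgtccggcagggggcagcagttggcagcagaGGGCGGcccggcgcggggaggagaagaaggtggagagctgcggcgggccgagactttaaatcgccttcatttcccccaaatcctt
Col15a1: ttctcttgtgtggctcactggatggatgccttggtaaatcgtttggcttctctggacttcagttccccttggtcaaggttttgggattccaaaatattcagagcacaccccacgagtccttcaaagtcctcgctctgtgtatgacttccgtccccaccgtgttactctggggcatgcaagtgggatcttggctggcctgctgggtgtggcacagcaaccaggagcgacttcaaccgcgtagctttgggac
Col6a3: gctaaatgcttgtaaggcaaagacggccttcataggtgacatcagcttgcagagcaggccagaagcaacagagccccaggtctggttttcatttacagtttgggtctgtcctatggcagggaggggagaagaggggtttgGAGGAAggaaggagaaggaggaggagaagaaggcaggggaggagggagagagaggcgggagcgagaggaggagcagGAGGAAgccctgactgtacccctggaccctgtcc
Lama2: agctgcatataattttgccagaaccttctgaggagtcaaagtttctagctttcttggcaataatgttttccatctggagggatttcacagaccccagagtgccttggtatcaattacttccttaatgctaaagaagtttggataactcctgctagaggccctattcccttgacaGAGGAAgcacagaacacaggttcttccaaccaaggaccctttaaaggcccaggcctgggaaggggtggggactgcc
The shared bases of Col4a1 and Col4a2 hold 1 GC box. The Col27a1 window also holds 1, the Col6a3 window holds GAGGAA at 2 places and the Lama2 window at 1, and the Col15a1 window holds none of the 4 motifs. Col4a5 and Col4a6, another head-to-head pair on chromosome X, have RefSeq starts 1343 bases apart.

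Collagen and laminin transcripts were scarce in both fractions. The summed level of all 55 had a median of 94.7 CPM (89.1 to 152) in TRAP of home cage mice and 94.2 (80.5 to 162) in TRAP of run mice. In lysate the medians were 135 CPM (97.5 to 195) in home cage mice and 120.3 (92.9 to 186) in run mice. The 4 groups overlapped. Per kilobase of exon the order of the levels differed between fractions. The length used is that of all annotated exons of a gene together, and the order depends on it. For some members it is far above the longest transcript, as for Col1a2 (12426 bases against 5348), Col25a1 (12947 against 6701) and Col27a1 (13022 against 7612). For others it is close, as for Col9a2 (3095 against 2924). Lamb2 led TRAP with a mean of 2.22 CPM per kilobase ± 1.65 (SD, n = 14), followed by Col27a1 with 1.09 ± 0.631, Col9a2 with 0.998, Col4a2 with 0.908, Col4a1 with 0.871, Col15a1 with 0.757 and Lamc1 with 0.747. From Lamb2 down, each neighbour lay within 1 SD of the one above it. Lamb2 led in each cohort alone, with 0.994 ± 0.465 in cohort 1 (n = 8) and 3.86 ± 1.07 in cohort 2 (n = 6). The order below it held in neither cohort alone. In cohort 2 Col27a1 came next with 1.7 ± 0.43, then Col4a1 (1.48), Col4a2 (1.41) and Col9a2 (1.27). In cohort 1 Col27a1 had 0.632 ± 0.231, below Col9a2 (0.792), Col25a1 (0.742), Col19a1 (0.741) and Col15a1 (0.684). Over both cohorts Col9a3 led lysate with 1.73 CPM per kilobase ± 0.567, followed by Col9a2 with 1.71 ± 0.406, and lower down came Col19a1 with 1.41, Lamb2 with 1.32, Col6a1 with 1.2 and Col25a1 with 1.01. In this order too, each lay within 1 SD of the one named before it. It held in neither cohort alone, since Col19a1 led lysate in cohort 1 (1.59 ± 0.504, against 1.32 ± 0.233 for Col9a3) and Lamb2 in cohort 2 (2.37 ± 0.359, against 2.27 ± 0.367). Col6a5 had no read in any of the 14 TRAP libraries, each of which allows up to 3 counts, and at most 1.08 CPM in lysate.

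**Figure D1:**
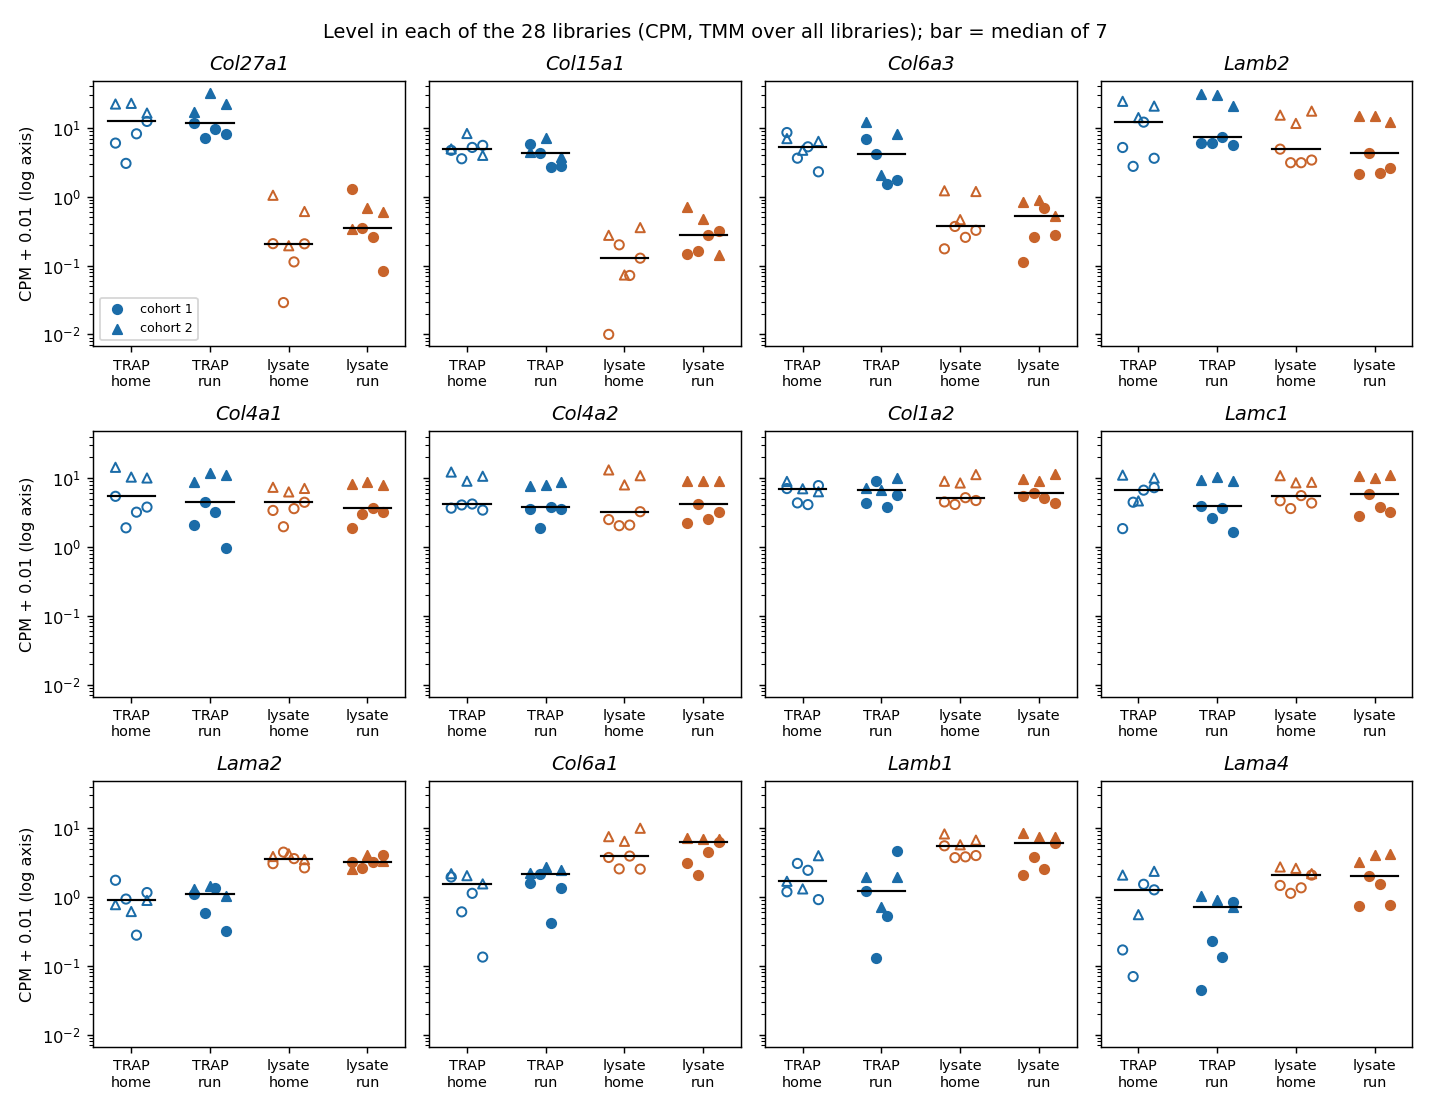
Level of 12 collagen and laminin genes in each library, in CPM plus 0.01 on a log axis, for the 4 groups of 7 (open, home cage; filled, run; circles, cohort 1; triangles, cohort 2; bars, group medians). Col27a1, Col15a1 and Col6a3 lie higher in every TRAP library than in any lysate library, Lama2 lies lower, and home cage and run overlap in each panel.

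The first comparison asks which matrix transcripts were higher or lower in the microglial precipitate than in the tissue it came from. Of the 55 genes 54 had enough reads to be tested, and edgeR's quasi-likelihood test with Benjamini-Hochberg adjustment over all 16716 genes tested, with cohort and condition as terms, called 6 higher in TRAP and 22 lower. Over all genes tested 34.0% were called higher and 39.6% lower. The counts by class given below stand against these shares. The members' median log2 fold was −1.07 against −0.20 over all genes. The 6 higher members were Col27a1, Col15a1, Col6a3, Col14a1, Lamb2 and Col5a1, so 5 of 43 collagens and 1 of 11 laminins. Among the 22 lower ones were 16 collagens and 6 laminins. With scaling by library size alone, which moved the median log2 fold of all genes to −0.71, the split became 3 higher and 31 lower, and the calls of Lamb2 (0.29), Col5a1 (0.27) and Col14a1 (1.32) were lost. With the mouse as a replicate block, since both fractions come from the same animal, 5 were called higher and 27 lower: Col5a1 was lost, and Col4a5 (−2.29, adjusted p = 0.0311), Lama1 (−3.90, adjusted p = 0.00699), Col2a1 (−4.50, adjusted p = 0.0108), Col9a1 (−5.40, adjusted p = 0.00062) and Col17a1 (−6.29, adjusted p = 0.000708) were gained. Without the 2 run mice of uncertain sex label Col5a1, Col14a1 and Lamb3 were lost, and Col17a1 (−4.59, adjusted p = 0.0152) and Col6a5 (−7.29, adjusted p = 0.00069) were gained. A lower value of a bulk library cannot separate fewer cells of a type from less RNA per cell, and as shares of a library the folds of all genes depend on one another.

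Col27a1, a fibrillar collagen best known from cartilage, had the largest fold. It stood at 3.04 to 22.7 CPM in TRAP of home cage mice (median 12.4) and at 7.09 to 32 in TRAP of run mice (median 11.6). In lysate it stood at 0.019 to 1.04 CPM (median 0.197) and 0.074 to 1.27 (median 0.341). The fractions did not overlap and TRAP was higher in 14 of 14 mice, with a log2 fold of 5.05 ± 0.37 (SE), or 33.1-fold, and an adjusted p of 1.28e-13. Its log2 fold was 5.00 ± 0.57 in cohort 1 alone and 5.27 ± 0.37 in cohort 2 alone.

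Col15a1 encodes a multiplexin, a collagen with heparan or chondroitin sulphate chains that bridges basement membranes to the matrix beneath. Its TRAP level was 3.55 to 8.28 CPM in home cage mice (median 4.93) and 2.68 to 7.17 in run mice (median 4.34). Its lysate level was 0 to 0.346 CPM (median 0.118) and 0.133 to 0.697 (median 0.27). No lysate library reached the lowest TRAP library, and the log2 fold was 4.54 ± 0.39 (23.3-fold, adjusted p = 6.84e-12, higher in 14 of 14 mice). The other multiplexin, Col18a1, the source of endostatin and a known part of vessel basement membranes, was not called (−1.06 ± 0.65, adjusted p = 0.139), but limma-voom called it lower (−1.20, adjusted p = 0.0434).

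Collagen VI split by chain. Its beaded filaments are built from an α1, an α2 and 1 more chain, most often α3. Col6a3, the α3 chain, was at 2.29 to 8.55 CPM in TRAP of home cage mice (median 5.3) and 1.53 to 12.1 in TRAP of run mice (median 4.14), against 0.165 to 1.21 (median 0.36) and 0.101 to 0.899 (median 0.522) in lysate. It was higher in TRAP in 14 of 14 mice without overlap (3.46 ± 0.33, 11.0-fold, adjusted p = 4.77e-11). Col6a1, the α1 chain, lay the other way, at 0.124 to 2.17 CPM in TRAP of home cage mice (median 1.54) and 0.413 to 2.69 in TRAP of run mice (median 2.13), against 2.53 to 9.96 (median 3.92) and 2.07 to 7.21 (median 6.29) in lysate. Its groups overlapped at their edges, and its log2 fold was −1.71 ± 0.26 (adjusted p = 8.01e-07, lower in 13 of 14 mice). Col6a2, the α2 chain and the neighbour of Col6a1 on chromosome 10, had 0 to 2.25 CPM (median 0.463) and 0.0344 to 3.31 (median 0.747) in TRAP and 1.01 to 8.22 (median 2.83) and 1.15 to 7.57 (median 3.56) in lysate. It was lower in TRAP in 14 of 14 mice (−2.26 ± 0.43, adjusted p = 2.24e-05). Thus among the 5 tested beaded filament chains 1 was higher and 3 lower, where 34.0% and 39.6% of all genes were. The last of the lower chains was Col6a4 (−1.98 ± 0.48, adjusted p = 0.000483), and Col6a6 was not called. Over all tested members 3 of 54 had every TRAP library above every lysate library, where 11.9% of all genes did, and 1 of 54 had every TRAP library below, where 4.40% did.

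The 3 chains of the common interstitial collagens, Col1a1, Col1a2 and Col3a1, were not called. Col1a2, the second chain of collagen I, lay at 4.1 to 8.91 CPM in TRAP of home cage mice (median 6.97) and 3.75 to 10 in TRAP of run mice (median 6.63), and at 4.12 to 11.2 (median 5.17) and 4.39 to 11.5 (median 6.15) in lysate. All 4 groups overlapped, and the log2 fold was −0.03 ± 0.14 (adjusted p = 0.832). Col1a1 gave 0.19 ± 0.28 (adjusted p = 0.564) and Col3a1 0.55 ± 0.49 (adjusted p = 0.314). Col5a1, which sets the diameter of collagen I fibrils, was higher (0.79 ± 0.30, adjusted p = 0.0214, in 12 of 14 mice). With the mouse as a replicate block that call was lost (0.68, adjusted p = 0.106), as it was without the 2 run mice of uncertain sex label and without home cage mouse Female1 of cohort 1 (log2 fold 0.55, adjusted p = 0.094). Against 39.6% of all genes, 3 of 11 fibrillar chains were lower, Col11a1, Col11a2 and Col24a1. Of these Col24a1 had no read in 13 of 14 TRAP libraries.

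Among the 9 fibril-associated collagens, which decorate the surface of fibrils, 5 were lower and 1 higher, where 39.6% and 34.0% of all genes were. Col9a3, a chain of collagen IX, had 0.799 to 4.25 CPM (median 2.26) and 1.26 to 2.86 (median 1.88) in TRAP and 3.63 to 10.6 (median 6.15) and 4.13 to 10.2 (median 5.4) in lysate. Its fractions nearly separated, and it was lower in TRAP in 14 of 14 mice (−1.54 ± 0.21, adjusted p = 7.35e-08). Its exons share 234 bases with those of Tcfl5 on the opposite strand, whose reads cannot be told apart where the counting did not use strand. Col19a1, a collagen made by subsets of neurons, was lower in 14 of 14 mice too (−1.53 ± 0.23, adjusted p = 4.09e-07). Col12a1 (−1.61 ± 0.30), Col16a1 (−1.41 ± 0.42) and Col9a2 (−0.79 ± 0.17) completed the lower ones. Col14a1 was the higher one, at 1.64 to 3.57 CPM (median 2.12) and 0 to 3.43 (median 0.972) in TRAP against 0 to 1.99 (median 0.407) and 0 to 0.873 (median 0.552) in lysate. Its fractions overlapped (1.83 ± 0.77, adjusted p = 0.0338, higher in 11 of 14 mice), and the call was lost without any 1 of 6 mice, with adjusted p from 0.0502 to 0.0811, and without the 2 run mice of uncertain sex label.

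The membrane-spanning collagens include Col25a1, which neurons make and whose shed ectodomain is found in amyloid plaques. It stood at 2.18 to 9.43 CPM (median 6.23) and 2.36 to 16.4 (median 8.04) in TRAP and at 7.38 to 20.3 (median 15.3) and 5.93 to 19.4 (median 11.2) in lysate. The fractions overlapped, with a lower TRAP level in 12 of 14 mice (−1.08 ± 0.18, adjusted p = 4.49e-06). Col23a1 was lower as well (−0.72 ± 0.24, adjusted p = 0.00932), so 2 of 4 transmembrane chains were, against 39.6% of all genes. Of the short-chain collagens 2 of 3 were lower against the same share, Col8a1 (−1.20 ± 0.48) and Col8a2 (−2.20 ± 0.66), the chains of collagen VIII. Of the 3 remaining collagens Col28a1 was lower, with no read in 12 of 14 TRAP libraries. The call of Col8a1 was lost without either of 2 mice (adjusted p = 0.0545 and 0.0609) and that of Col28a1 without any 1 of 8 (0.0541 to 0.0686).

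None of the 6 basement membrane collagens was called in either direction, but with the mouse as a replicate block Col4a5 was called lower (−2.29, adjusted p = 0.0311). Col4a1 lay at 1.88 to 14.3 CPM in TRAP of home cage mice (median 5.41) and 0.948 to 11.7 in TRAP of run mice (median 4.5), and at 1.95 to 7.32 (median 4.43) and 1.86 to 8.66 (median 3.66) in lysate. Col4a2 lay at 3.41 to 12.2 CPM (median 4.18) and 1.85 to 8.73 (median 3.75) in TRAP and at 2.02 to 13.1 (median 3.23) and 2.23 to 9.19 (median 4.17) in lysate. The fractions overlapped for both chains. Their log2 folds were 0.22 ± 0.19 (adjusted p = 0.287) and 0.16 ± 0.14 (adjusted p = 0.305), and TRAP was higher in 9 and in 8 of 14 mice. In cohort 2 alone Col4a1 was called higher (0.55 ± 0.15, adjusted p = 0.00518), as it was by limma-voom (0.35), and in cohort 1 alone it was −0.02 ± 0.32. With scaling by library size only Col4a1 turned to −0.31 and Col4a2 to −0.36, the latter called lower. The minor chains were near the limit of detection: Col4a3 had a median of 0.627 CPM in TRAP of home cage mice and 0.275 in lysate of home cage mice, and Col4a4, Col4a5 and Col4a6 had medians of 0, 0.241 and 0.101 CPM in TRAP of home cage mice. By the same test without the block Col4a5 was −1.17 ± 0.68 and Col4a6 −1.34 ± 1.24, and limma-voom called Col4a5 lower (−2.44, adjusted p = 0.0013). Fits to such counts have wide errors and show no likeness of the fractions.

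Of the 11 laminins 6 were called lower in TRAP and 1 higher, where 39.6% and 34.0% of all genes were, with a median log2 fold of −1.50 over the 11. Among the α chains, which carry the binding sites for cell receptors, Lama2 was the clearest. This chain of muscle, vessel and pial laminin had 0.269 to 1.74 CPM (median 0.882) and 0.31 to 1.44 (median 1.08) in TRAP, and 2.64 to 4.47 (median 3.6) and 2.56 to 4.08 (median 3.25) in lysate. No TRAP library reached the lowest lysate library (−1.85 ± 0.24, adjusted p = 5.11e-08, lower in 14 of 14 mice), and the log2 fold was −1.87 in each cohort alone. Its exons share 631 bases with the antisense gene Gm48084. Lama4, the α chain of endothelial basement membranes, was at 0.0598 to 2.35 CPM (median 1.26) and 0.0344 to 1.02 (median 0.706) in TRAP and at 1.12 to 2.72 (median 2.07) and 0.734 to 4.14 (median 1.98) in lysate. It was lower with overlap (−1.46 ± 0.42, adjusted p = 0.00252, in 11 of 14 mice), a call lost in cohort 1 alone (−1.51 ± 0.70, adjusted p = 0.066). Lama3, known from epithelia, was lower on few reads (−1.94 ± 0.77, adjusted p = 0.0245). It was called neither in cohort 1 alone (−1.64 ± 1.04, adjusted p = 0.181) nor in cohort 2 alone (−2.32 ± 1.03, adjusted p = 0.0575). Lama1, a chain of the pial basement membrane (−1.66 ± 0.96, adjusted p = 0.119), and Lama5, a chain of mature vessels (−0.84 ± 0.73, adjusted p = 0.298), were not called. Lama1 was called lower with the mouse as a replicate block (−3.90, adjusted p = 0.00699), by limma-voom (−3.91, adjusted p = 5.01e-05) and by DESeq2 (−1.71, adjusted p = 0.0473).

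The β chains split. Lamb2, the β chain of mature vessel and synaptic laminins, had 2.75 to 24.3 CPM (median 12.1) and 5.56 to 31.3 (median 7.25) in TRAP and 3.11 to 17.5 (median 4.9) and 2.15 to 15.1 (median 4.27) in lysate. Although the groups overlapped across mice, TRAP was higher within 13 of 14 mice (0.82 ± 0.17, 1.76-fold, adjusted p = 9.29e-05), with 0.92 ± 0.28 in cohort 1 alone and 0.68 ± 0.18 in cohort 2 alone. It was the only laminin called higher. Lamb1, the other widespread β chain, had 0.906 to 3.97 CPM (median 1.68) and 0.122 to 4.62 (median 1.23) in TRAP and 3.72 to 8.23 (median 5.53) and 2.05 to 8.37 (median 6.1) in lysate. It was lower in 14 of 14 mice (−1.50 ± 0.33, adjusted p = 0.00017), a call lost in cohort 1 alone (−1.17 ± 0.50, adjusted p = 0.0502). Lamb3, a chain of epithelial laminin, was lower too (−1.86 ± 0.77, adjusted p = 0.0316), a call lost without any 1 of 5 mice (0.05 to 0.0655) and without both run mice of uncertain sex label (−1.99, adjusted p = 0.053). In cohort 1 alone Lamb3 was not called either (−1.56 ± 1.23, adjusted p = 0.281).

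Of the γ chains, Lamc1, which most laminins contain, did not separate the fractions. It stood at 1.83 to 11 CPM (median 6.65) and 1.65 to 10.3 (median 3.89) in TRAP and at 3.59 to 10.8 (median 5.54) and 2.81 to 11.2 (median 5.76) in lysate. TRAP was higher in 7 of 14 mice and lower in the other 7 (−0.11 ± 0.18, adjusted p = 0.597). Lamc3 was not called (−0.42 ± 0.65, adjusted p = 0.567), and its exons share 382 bases with those of an antisense gene.

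**Figure D2:**
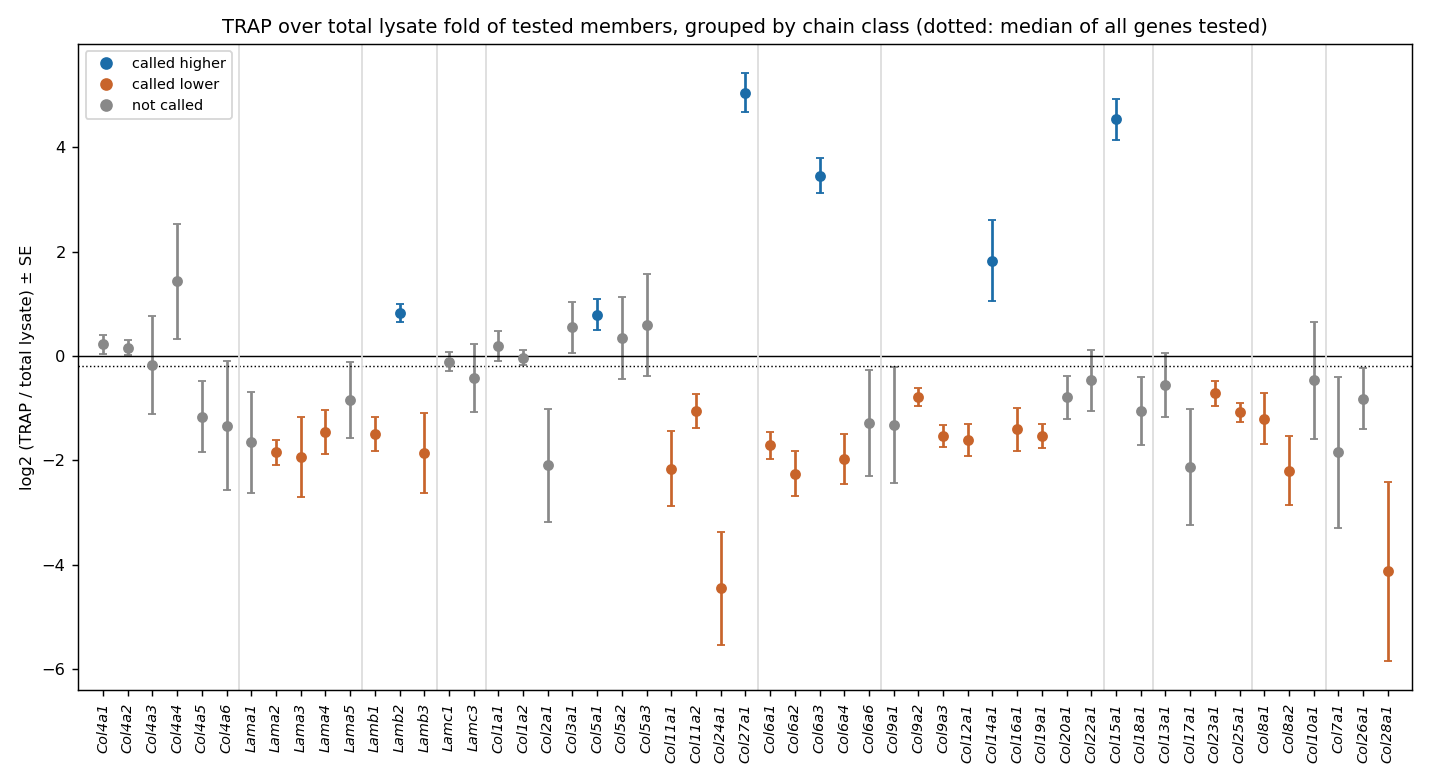
Log2 fold of TRAP over lysate for the tested members, 1 of them not shown, grouped by class, with standard errors from edgeR and the median over all genes as a dotted line (−0.20). Col27a1, Col15a1 and Col6a3 stand far to the higher side, the collagen IV chains lie on both sides of 0, and all laminin chains but Lamb2 lie below 0.

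Markers of other cells moved with the fraction beside these genes. Of 14 endothelial markers 13 were higher in TRAP and 0 lower, with a median log2 fold of 1.90 and a summed level of 261 to 908 CPM in TRAP of home cage mice, 317 to 714 in TRAP of run mice, 155 to 307 in lysate of home cage mice and 139 to 198 in lysate of run mice. Of 12 mural markers 6 were higher and 1 lower (median 0.55), with sums of 68.9 to 284 CPM in TRAP and 47.6 to 104 in lysate. Of 14 markers of meningeal and perivascular fibroblasts 0 were higher and 6 lower (median −0.58), with sums of 55.2 to 96.6 CPM in TRAP and 76.1 to 139 in lysate. No endothelial marker was at 0 in any library; Myh11 and Cnn1, markers of smooth muscle, were at 0 in 4 and 7 TRAP libraries, and the fibroblast markers Slc47a1 and Foxc2 in 1 and 2. The 10 astrocyte, 8 excitatory, 8 inhibitory and 8 oligodendrocyte markers had medians of −0.98, −1.02, −1.19 and −1.40 with none higher, and the median of the members, −1.07, lay among these. The part that RNA of vessels, meninges or border macrophages has in the members' folds was not tested.

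Beside the chains, the genes that build, bind and degrade them were read from the same fit. Their counts stand against 34.0% higher and 39.6% lower over all genes, and nothing particular to a list is read from them. Of 18 basement membrane partners 5 were higher and 7 lower (median −0.06), and named by size of fold these were Sparc, a collagen-binding chaperone of the matrix (5.69 ± 0.10), Nid2, a nidogen that links laminin to collagen IV (3.40 ± 0.27), and Frem1 (−2.17 ± 0.84). Of 25 tested genes of collagen synthesis and cross-linking 11 were higher and 8 lower (median 0.53), led by P3h2, a prolyl 3-hydroxylase that acts on collagen IV (4.86 ± 0.22), and the lysyl hydroxylases Plod1 (3.49 ± 0.13) and Plod3 (3.46 ± 0.12). Of 18 receptors 7 were higher and 7 lower (median −0.31). Lair1, an inhibitory collagen receptor of leukocytes (5.26 ± 0.13), and Adgrg1, an adhesion receptor that binds collagen III (4.24 ± 0.13), were the highest, and Itga10, a collagen-binding integrin of cartilage, was −4.22 ± 0.94. Of 18 tested matrix proteases and their inhibitors 8 were higher and 6 lower (median 0.36), with Ctss, a cathepsin of macrophages (6.83 ± 0.13), Mmp2 (3.37 ± 0.22) and Ctsl (2.83 ± 0.09) named. Of 18 interstitial matrix genes 4 were higher and 7 lower (median −0.77), among them Tgfbi (5.16 ± 0.17), Mfap5 of microfibrils (−2.59 ± 0.98) and Postn (2.16 ± 0.23). The medians of all 5 lists lay above that of the chains, −1.07, a difference that was not tested.

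Some members had levels that did not overlap between cohorts, in TRAP a smaller share of them than of all genes. In TRAP, every cohort 2 library lay above every cohort 1 library for 4 of 54 members, Col4a1, Col4a2, Lamb2 and Col27a1 (20.7% of all genes), and below for Col25a1 alone (17.1%). In lysate cohort 2 lay above for 17 of 54 (26.4% of all genes) and below for 0 of 54 (20.8%). Col4a1 in TRAP was at 0.948 to 5.41 CPM in cohort 1 and 8.84 to 14.3 in cohort 2, and Lamb2 in lysate at 2.15 to 4.9 and 11.6 to 17.5. Col25a1 in TRAP, the AT-richest of these 5 genes at 45.9% GC, was at 6.23 to 16.4 CPM in cohort 1 and 2.18 to 4.75 in cohort 2. Across the 29 members with a mean of at least 1 CPM, the log2 ratio of cohort 2 to cohort 1 went with exon GC content, with a Spearman rho of 0.68 and a Pearson r of 0.70 in TRAP and 0.70 and 0.75 in lysate. This is a description across genes of the same libraries. What else differed between cohorts was not tested.

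The fraction fold itself differed between cohorts for 3 of 54 members, 1 higher in cohort 2 (8.56% of all genes) and 2 lower (11.9%), by an interaction term in the same test. For Col25a1 the difference was −0.91 ± 0.33 (adjusted p = 0.0477), with folds of −0.72 ± 0.19 and −1.58 ± 0.26. It was called lower in TRAP in each cohort alone, with the larger fold in cohort 2. Col28a1, at 0 in most TRAP libraries, gave 8.73 ± 2.49 (adjusted p = 0.0148), which depends on how zeros are treated. With the mouse as a replicate block none of these 3 calls held (Col25a1 −0.87, adjusted p = 0.0856; Col28a1 4.60, adjusted p = 0.316), and Col4a6 was called instead (−8.05, adjusted p = 0.0465). With a GC offset Col4a1 was called (1.04 ± 0.36, adjusted p = 0.0261) and Col25a1 was not. Without the 2 run mice of uncertain sex label neither Col25a1 (−0.84, adjusted p = 0.116) nor Col28a1 (8.32, adjusted p = 0.0622) was called. The folds of Col27a1, Col15a1, Col6a3, Lamb2 and Lama2 were not called as different between cohorts; their differences were 0.36 ± 0.66, −0.76 ± 0.68, −0.84 ± 0.59, −0.20 ± 0.34 and 0.03 ± 0.49.

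The main contrast of the study, 1 h of running against the home cage, was tested in each fraction with cohort as a term and levels scaled within the fraction. In TRAP, edgeR called 0 of 42 tested members (0.0460% of all genes were called), with 1 at an unadjusted p under 0.05 (3.55% of all genes). The other 13 members had too few reads to be tested in TRAP. In lysate edgeR called 0 of 54 (0.0311% of all genes), with 2 at an unadjusted p under 0.05 (7.41% of all genes). DESeq2 and limma-voom called 0 in each as well. The median log2 fold of run over home cage was −0.15 over the members in TRAP and −0.10 in lysate. No member separated all run from all home cage libraries in either fraction (0 of 42 in TRAP, where run lay above for 0.0460% of all genes and below for 0%, and 0 of 54 in lysate, where run lay above for 0.0373% and below for 0.0124%).

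The vascular collagens and laminins give the precision of this. In TRAP the log2 fold of run over home cage was −0.29 ± 0.30 for Col4a1, −0.33 ± 0.20 for Col4a2, 0.23 ± 0.28 for Lamb2 and −0.37 ± 0.32 for Lamc1. In lysate these were 0.02 ± 0.19, 0.08 ± 0.18, −0.23 ± 0.17 and −0.04 ± 0.16. The members highest in TRAP gave 0.25 ± 0.24 (Col27a1), −0.23 ± 0.26 (Col15a1) and −0.13 ± 0.41 (Col6a3) there. After adjustment over all genes, folds of over 2 errors were not called either, as the next values show. Col1a2, among the best measured, gave 0.03 ± 0.24 in TRAP and 0.16 ± 0.12 in lysate.

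The members with the smallest p were low ones. Col4a3 in TRAP lay at 0 to 1.48 CPM in home cage mice (median 0.556) and at 0 to 0.173 in run mice (median 0.0163). The groups overlapped over all mice and in cohort 1, and run lay below in cohort 2. The log2 fold of Col4a3 was −3.60 ± 1.27 (adjusted p = 0.999). Lama1 in lysate lay at 0.634 to 2.97 CPM in home cage mice (median 0.99) and 0.0716 to 2.05 in run mice (median 0.297). Run lay below home cage in cohort 1 (−2.30 ± 0.80) and overlapped it in cohort 2 (−0.34 ± 0.38), and the fold over both was −1.42 ± 0.45 (adjusted p = 0.568). Col4a5 in lysate, at 0.6 to 3.59 CPM (median 1.32) and 0.337 to 2.2 (median 0.577), gave −1.03 ± 0.45 (adjusted p = 0.661). Next in lysate came Col18a1 with −1.24 ± 0.60 (adjusted p = 0.67). On the higher side the smallest p in TRAP were those of Col25a1 (0.32 ± 0.26), Lamb3 (1.72 ± 1.39) and Col23a1 (0.46 ± 0.40), and in lysate those of Col15a1 (1.11 ± 0.70), Col17a1 (1.17 ± 0.80) and Col1a1 (0.40 ± 0.28), none past the threshold.

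**Figure D3:**
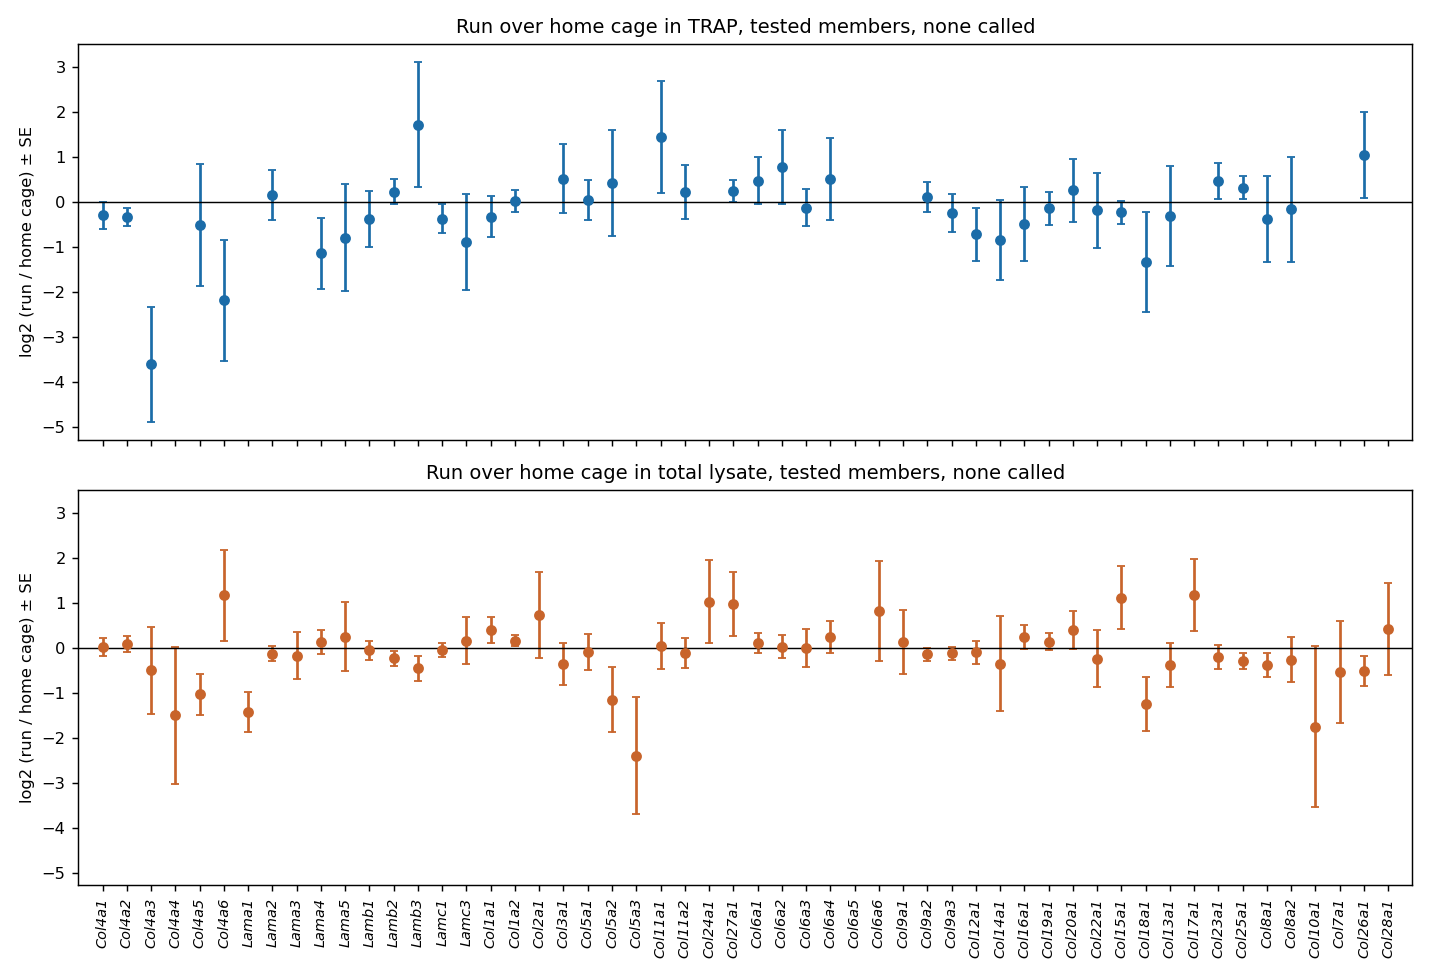
Log2 fold of run over home cage with standard errors from edgeR for the members tested in TRAP and in lysate, 1 of them not shown. Most members lie within 1 of 0 and those far out, such as Col4a3 in TRAP, have the widest errors; none passed the adjusted threshold.

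The effect of running did not differ detectably between fractions or cohorts for any member. Its difference between TRAP and lysate was called by edgeR for 0 of 54 members (0% of all genes), with 2 at an unadjusted p under 0.05 (4.64% of all genes). These were Col7a1 (8.48 ± 2.53) and Col24a1 (4.19 ± 1.95), both at 0 in all home cage TRAP libraries. The difference of the run effect between cohorts was called for 0 of 42 in TRAP (0% of all genes). There 1 had an unadjusted p under 0.05 (4.28% of all genes), Col19a1 (1.57 ± 0.65). In lysate the difference between cohorts was called for 0 of 54 (0%), with 4 at an unadjusted p under 0.05 (2.04% of all genes). Among those 4 were Col4a4, Col5a3 and Lama1 (1.97 ± 0.74). DESeq2 and limma-voom called 0 in each. None of the basement membrane partners, synthesis genes, receptors, proteases or interstitial matrix genes listed above was called between run and home cage in either fraction.

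Some chains varied together from mouse to mouse within condition and cohort. These are Pearson correlations of log2 CPM deviations from the means of condition and cohort, over 14 libraries of a fraction, and they share depth and base composition. The pairs named were picked from many and none was tested, so values of this size can arise by chance among them. In TRAP Col27a1 and Col15a1 went together (r = 0.60, and 0.60 again without the 2 libraries farthest out). In lysate Col1a1 and Col1a2, the partner chains of collagen I, gave 0.79 (0.82 without those 2). The head-to-head pair Col4a1 and Col4a2 gave 0.54 in lysate (0.31 without 2) and −0.42 in TRAP (0.12 without 2). Within cohorts the TRAP value was −0.61 in cohort 1 (n = 8) and 0.77 in cohort 2 (n = 6), so its sign did not hold across cohorts. With summed marker levels, Lamc1 in TRAP went with the mural list (0.85, and 0.72 without 2) and Col6a3 with the border macrophage list (0.60, and 0.56 without 2). Col19a1 went with the list of excitatory neurons (0.76, and 0.76 without 2). Lamb2 went with the endothelial list at 0.72, which fell to 0.28 without 2.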

How the data were processed

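The deposited table holds raw counts of reads per gene symbol for 28 libraries, which the authors made with STAR 2.7.7a and featureCounts on GRCm38, with DESeq2 also named, per the submitters' processing notes. No source used here gives the gene annotation, strand setting or treatment of multimapping reads, and chains of 1 family can share reads. RNA was isolated with RNeasy columns and libraries were made with Nextera XT, per the labels' protocols. Columns with no cohort mark were taken as cohort 1. No column of a sample outside the series was found (0). The table held no row without a gene name.

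Members and gene lists were chosen with earlier results of these data known. The counts were tested with edgeR 4.0.16 (R 4.3.3) by the quasi-likelihood F test, with TMM scaling, a low-count filter by group and Benjamini-Hochberg adjustment over all genes tested at a threshold of 0.05. The fraction comparison used all 28 libraries with cohort and condition as terms, the run comparisons used the 14 libraries of a fraction with cohort as a term, and interaction terms tested differences between fractions and cohorts. Ratios within a mouse used log2(CPM + 0.5). DESeq2 1.42.0 and limma 3.58.1 served as alternatives, with other scalings, no filter, a GC offset (lowess span 0.3), 1 cohort alone, a mouse left out, or the mouse as a block. The pipeline was tested on simulated data. Genes given in full were all collagen IV and laminin chains, Col1a1, Col1a2 and Col3a1, the called members with the 10 largest and 10 smallest fraction folds at a mean of at least 0.5 CPM, members called in a run comparison or interaction or, failing these, the 3 with the smallest p, and up to 3 called genes of each pathway list. Of the 55 genes 1 enters the counts and medians, but its own values are not reported here.

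Libraries are separate samples per the labels, and pairs of a group differed in their counts by a chi-square of at least 67.9 per degree of freedom, so none was a copy. TRAP and lysate of a mouse are paired by their titles. The deviations of a mouse's 2 libraries from their group means correlated at −0.38 to 0.32, above 0.1 in 6 of 14 mice. Deviations of libraries with the same sex and number label in the 2 conditions correlated at −0.6 to 0.21, above 0.1 in 3 of 14 pairs. Read counts of PCR libraries without molecular identifiers are not independent molecules, so limits from a count of 0 cover counting error only.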

Additional observations from a re-analysis of the deposited data

Results flagged for a closer look

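In 11 of 124 groups checked, the highest library stood apart from the other 6 of its group by Dixon's test on CPM. For normal values of a single population chance does this in about 1 in 20 groups. Groups here mix 2 cohorts and many hold zeros, so that rate need not apply and no excess is read from the count. The minor collagen IV chains gave 7 of these. Col4a4 had 1.09 CPM in TRAP of run mouse Female2 of cohort 1, where the others had 0 to 0.0359, and 0.268 in lysate of home cage mouse Male1 of cohort 1 (others 0 to 0.0787). Col4a5 had 1.38 CPM in TRAP of the same run mouse Female2 (others 0 to 0.568) and 1.82 in lysate of run mouse Male2 of cohort 1 (others 0.284 to 0.796). Col4a6 had 1.91 CPM in TRAP of home cage mouse Female2 of cohort 1 (others 0 to 0.277), 0.706 in TRAP of run mouse Female1 of cohort 1 (others 0 to 0.2) and 2 in lysate of run mouse Male2 of cohort 1 (others 0 to 0.831). These levels are 26 to 270 reads of a library. Lamb1 had 4.62 CPM in TRAP of run mouse Male2 of cohort 1 (others 0.122 to 1.97). Col15a1 had 8.28 CPM in TRAP of home cage mouse Female2 of cohort 2 (others 3.55 to 5.56). Col14a1 had 1.99 CPM in lysate of home cage mouse Female2 of cohort 1 (others 0 to 0.571). Col12a1 had 2.71 CPM in TRAP of home cage mouse Female1 of cohort 1 (others 0.435 to 1.39).

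The TRAP over lysate fold differed between cohorts by an interaction test for Col25a1 and Col28a1. The log2 fold in cohort 2 minus that in cohort 1 was −0.91 for Col25a1 and 8.73 for Col28a1. The cohorts also differ in depth and in how levels go with GC content, and the part of these in the differences was not tested beyond the GC offset, under which Col28a1 was called, Col25a1 was not (−0.49, adjusted p = 0.228) and Col4a1 was called as well (1.04 ± 0.36, adjusted p = 0.0261).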

How the results depend on the processing

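The folds of Col27a1, Col15a1, Col6a3 and Lama2 kept their direction and their call under every alternative run. The count of members higher in TRAP was 6, and 3 with scaling by library size alone; over single mice left out it was 4 to 6. The count lower in TRAP was 22, and 11 in cohort 1 alone, which has 8 libraries of each fraction; over single mice left out it was 21 to 24. DESeq2 gave 6 higher and 24 lower, limma-voom 7 and 30, cohort 2 alone 7 and 27, and the fit without the 2 run mice of uncertain sex label 4 and 23. Without the cohort term 4 were higher, Lamb2 (0.74) and Col5a1 being lost, and 21 lower. With the mouse as a replicate block 5 were higher and 27 lower. The fold differed between cohorts for 3 members, for 1 by limma-voom, for 6 with library size scaling, for 1 without the 2 run mice and for 1 with the replicate block. Signs of called folds turned for Col4a2 with library size scaling (−0.36, called there only) and for Col28a1 in cohort 2 alone (0.02). Among chains not called, the sign of Col4a1, Col4a2, Col4a3, Col4a4, Col4a6, Col1a1, Col1a2 and Col5a3 turned under at least 1 alternative. The cause of these shifts was not tested. Run comparisons and their interactions gave 0 members under every alternative run, the replicate block included. Most members under about 0.5 CPM had libraries at 0, and the cause was not tested. Col9a1, for example, was at 0 in 10 of 14 TRAP libraries but reached 315 reads in another.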
